A study of Rattus norvegicus with 2 samples.

Results

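The receptors of adiponectin and the subunits of AMP-activated protein kinase (AMPK) were followed on 2 microarrays of rat tissue labelled left ventricle. The 10 genes were chosen by name and not by their values, though earlier results of these data were known. They are the receptor genes Adipor1, Adipor2 and Cdh13, the kinase gene Stk11, and the AMPK subunit genes Prkaa1, Prkaa2, Prkab1, Prkab2, Prkag1 and Prkag2. All 10 were measured, each by 1 probe set, among 15037 named genes. The RNA came from 1 cocaine sample and 1 control sample. Both were from male Sprague Dawley rats (SD in the labels), by the study's methods 8 weeks old at the start. Whether a sample held 1 rat or several is not said there. The cocaine rat received 20 mg/kg/day for 14 days through the tail vein. The control is described in the labels as not stimulated, whereas the study's methods describe control rats given saline on the same schedule. Each RNA was hybridized to 1 Clariom S array, on which a set of short probes reports the level of a transcript as an intensity. As neither condition was replicated, differences are given without a standard deviation or a p-value and hold for these 2 arrays.

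Adiponectin is a hormone secreted mainly by fat cells. It binds AdipoR1 and AdipoR2, receptors with several membrane-spanning segments, and its large multimers also bind T-cadherin, the product of Cdh13. AMPK is a sensor of cellular energy built from a catalytic alpha, a scaffolding beta and a nucleotide-binding gamma subunit, each encoded by more than 1 gene. When ATP runs low, AMP binds the gamma subunit, and LKB1, the product of Stk11, phosphorylates the alpha subunit. In heart muscle the active kinase promotes glucose uptake and fatty acid oxidation. The study went from the array to immunoblots of adiponectin and AMPK, and the question taken up here is how the transcripts of the receptors and of the kinase itself stood on the same arrays. An array measures neither protein nor phosphorylation.

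Some markers of the labelled tissue were dim on both arrays. A background limit was set on each array at the 95th percentile of the intensities of 1155 receptor genes of the olfactory and vomeronasal systems, which serve the sense of smell, and it came to 64.1 with cocaine and 71.5 in the control. Of 15 measured cardiomyocyte markers, 11 lay above it with cocaine and 7 in the control, with summed intensities of 9278 and 8808. The ventricular light chain gene Myl3, at 28.2 and 35.2, and the Z-disc gene Tcap, at 16.7 and 14.9, lay below it on both. Myl2, the ventricular regulatory light chain, stood at 6344 and 7778. The list held the slow myosin gene Myh7, at 31.9 and 29.0, but not Myh6, which the study lists among upregulated genes. All 13 measured markers of lung epithelium lay above the limit on both arrays, with summed intensities of 3260704 and 3298031. These sums hold different probes and are to be read only between the arrays, and that of the lung markers includes Sftpc at the top value of both arrays, 999971. Further lung markers were Sftpa1, at 559696 with cocaine and 542912 in the control, and Scgb1a1, at 482560 and 513553. The tissue is called by its label, which the markers as a set do not bear out. Levels given here are therefore not to be read as those of heart muscle. Fewer cells of a type and less RNA per cell cannot be told apart in such RNA.

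The transcripts of the receptors and of AMPK differed little between the cocaine and the control array. All 10 genes exceeded the limit of each array, at no less than 4.09 times the limit with cocaine and 4.78 times in the control. Cdh13 alone differed by at least 1.2-fold, that is 1 of 10 genes, downward, whereas 42.4% of all named genes (22.4% upward and 20.0% downward) and 38.5% of the 9763 genes above the limits on both arrays did so. None of the 10 differed by 1.5-fold, against 9.58% of all named genes and 7.04% of those above the limits on both arrays. With shares this low, none among 10 genes is near the share and is no result about them. Of the 10 genes 3 were higher and 7 lower on the cocaine array, where 52.4% of all named genes were higher and 47.3% lower. Their median log2 difference, cocaine minus control, was -0.11, and that of all named genes was 0.02. With quantile normalization of the arrays, or with a smooth trend of the difference on the level removed, Prkaa2 moved to the lower side and 2 genes were higher.

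**Figure D1:**
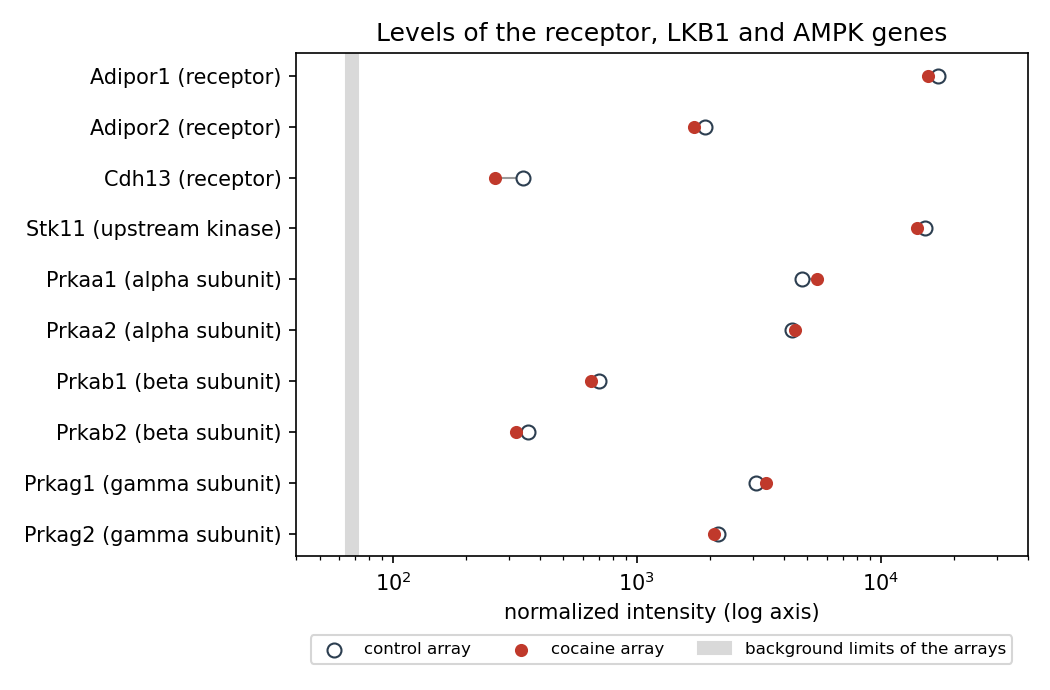
Normalized intensity of the 10 genes (horizontal log axis) on the control array (open circles) and the cocaine array (filled circles), with a grey band between the background limits of the arrays. Each pair of circles nearly coincides, the widest gap is that of Cdh13, and all circles lie to the right of the band. Probe sets bind with different strength, so positions of different genes are not to be compared.

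The receptor genes were all lower on the cocaine array. Adipor1, the receptor form usually linked to AMPK, stood at 15580 with cocaine and 17197 in the control, a log2 difference of -0.14. Adipor2, the form usually linked to PPAR alpha and fatty acid oxidation, stood at 1713 and 1911, a log2 difference of -0.16. In percent these differences were -9.41 and -10.4, so both receptor transcripts were lower by a similar amount, and the log2 differences of Adipor1 and Adipor2 lay 0.02 apart. Among the 9763 genes above the limits, 64.0% differed between the arrays by at least as much as Adipor1 and 59.9% by at least as much as Adipor2, in either direction. Both receptors are also found on macrophages, and of 9 measured macrophage markers 8 were lower on the cocaine array, with a median log2 difference of -0.33 and summed intensities of 15648 and 20513, 8 of them above the limit on each array. The part of macrophage content in the receptor levels was not tested.

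Cdh13 had the widest gap of the 10 genes. It encodes T-cadherin, a cadherin without a cytoplasmic tail that is held in the membrane by a lipid anchor and lies on endothelium, smooth muscle and heart muscle. Its intensity was 262.5 with cocaine and 341.7 in the control, a log2 difference of -0.38, or 1.30-fold lower. The difference lay between -0.43 and -0.34 over 6 other ways of treating the values. Of the genes above the limits, 22.0% differed by at least as much in either direction, and 8.59% were lower by at least as much. Cdh13 lay in the second quartile of level of these genes, where the median absolute log2 difference was 0.22. Markers of the cells that carry T-cadherin did not all go the same way. Of 9 measured endothelium markers 7 were higher, with a median log2 difference of 0.12 and summed intensities of 428517 on the cocaine and 428025 on the control array. Of 8 measured smooth muscle markers 5 were higher, or 3 with quantile normalization and 4 with median centring or the trend removed, with a median of 0.04 that turned to -0.05 with quantile normalization and to -0.01 with the trend removed, and their sums were 88089 and 88033. All of these endothelium and smooth muscle markers lay above the background limits on both arrays. Of the 15 cardiomyocyte markers 12 were higher, or 9 with a background floor, that is with values below the limits raised to the higher limit. Their median was 1.05, or 0.56 with that floor. The part of cell composition in the level of Cdh13 was not tested.

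Stk11, the gene of the upstream kinase LKB1, stood at 14125 with cocaine and 15191 in the control. The log2 difference was -0.10, or -7.02 percent. At least as large a difference was seen in 73.3% of the genes above the limits.

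The transcripts of the catalytic subunits of AMPK were both higher on the cocaine array at deposited values, and that of alpha 2 was lower with quantile normalization or with the trend removed. Prkaa1 encodes the alpha 1 subunit, which most tissues express, and stood at 5454 with cocaine and 4741 in the control. Its log2 difference of 0.20, or 15.0 percent, was the largest upward one of the 10 genes and lay between 0.12 and 0.20 under the other settings. It was matched or exceeded in absolute size by 50.0% of the genes above the limits. RefSeq lists 2 pseudogenes of Prkaa1 on chromosome 11, and whether the probes of Prkaa1 also bind their transcripts was not tested. Prkaa2 encodes the alpha 2 subunit, the prevailing form in heart and skeletal muscle, and stood at 4433 and 4327. This was a log2 difference of 0.03 that became -0.06 with quantile normalization and -0.05 with the trend removed. The log2 differences of Prkaa1 and Prkaa2 lay 0.17 apart.

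Both beta subunits, which hold the complex together and bind glycogen, were lower on the cocaine array. Prkab1 stood at 646.8 with cocaine and 699.0 in the control, a log2 difference of -0.11. Prkab2, the form abundant in muscle, stood at 320.8 and 358.8, a log2 difference of -0.16. The pair lay 0.05 apart. Differences at least as large were seen in 71.6% of the genes above the limits for Prkab1 and in 59.3% for Prkab2.

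The gamma subunits, which sense AMP and ATP, went in opposite directions. Prkag1, the widely expressed form, stood at 3396 with cocaine and 3077 in the control, a log2 difference of 0.14 that shrank to 0.04 with quantile normalization. Prkag2, whose human mutations cause a heart disease with glycogen storage and pre-excitation, stood at 2065 and 2156, a log2 difference of -0.06 that became -0.14 with quantile normalization and -0.15 with the trend removed. The log2 differences of Prkag1 and Prkag2 lay 0.20 apart, or 0.17 with quantile normalization. Prkag3, the third gamma gene, is known from skeletal muscle and was not among the 10, and at 12.1 and 12.7 it lay below the background limit on both arrays. Skeletal muscle markers were also dim, with 2 of 7 measured members above the limit on each array and sums of 401 and 369.

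**Figure D2:**
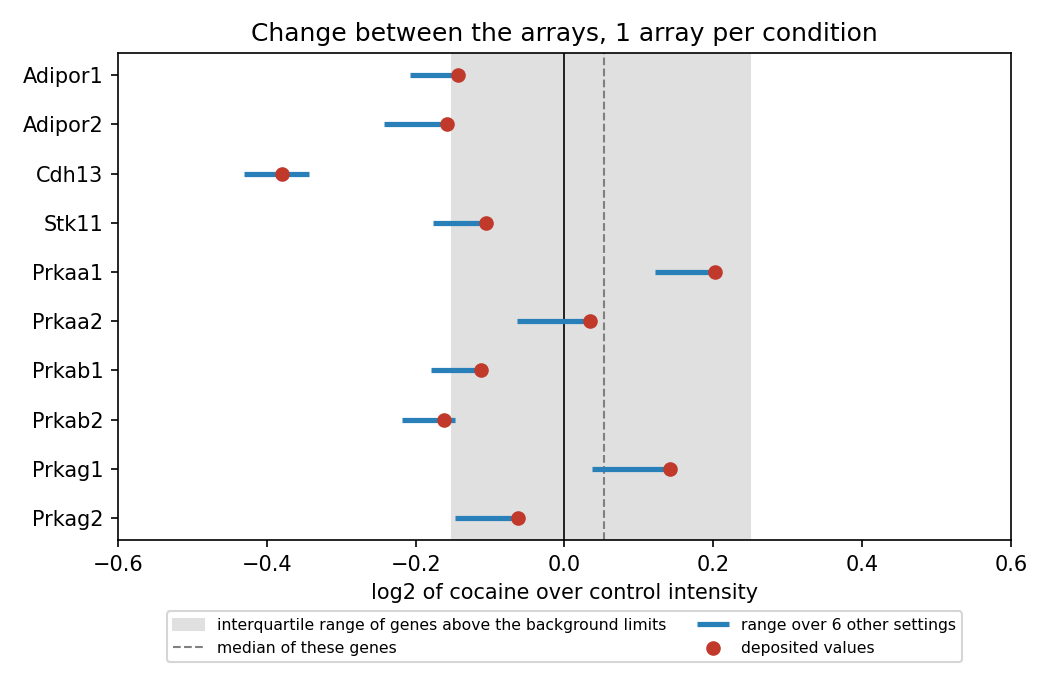
Log2 of the cocaine over the control intensity (horizontal axis) for the 10 genes at deposited values (points) and its range over 6 other settings (bars), with the interquartile range of the 9763 genes above the background limits in grey, from -0.15 to 0.25, and their median of 0.05 as a dashed line. Of the 10 points 7 lie within the grey band and 3, Cdh13, Prkab2 and Adipor2, to its left.

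Within the AMPK complex, then, 3 of 6 subunit transcripts were higher and 3 lower on the cocaine array, with a median log2 difference of -0.01 and values from -0.16 to 0.20. With quantile normalization or with the trend removed the median was -0.10 and 2 of 6 were higher. Elsewhere on the array, 10 other genes had more than 1 named probe set, 22 in all. The log2 differences given by the probe sets of 1 gene lay 0.06 to 0.83 apart, with a median of 0.33. Some of these probe sets stand for different transcripts of a gene, and no background limit was applied to them. The whole span of the 6 subunits was 0.36, but a range over 6 genes is another measure than a gap within 1 gene. The closeness of these values therefore does not show whether the subunits differed. In level, 5 of the 10 genes, Adipor1, Stk11, Prkaa1, Prkaa2 and Prkag1, lay in the brightest quartile of the genes above the limits, where the median absolute log2 difference was 0.17.

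The alpha 2, beta 2 and gamma 2 forms are those with the closest known ties to heart muscle, and their differences of 0.03, -0.16 and -0.06 stood beside the median of 1.05, or 0.56 with the background floor, of the cardiomyocyte markers. Tnnt2, the cardiac troponin T, stood at 456.9 with cocaine and 82.8 in the control. Mb, the oxygen-binding protein of muscle, stood at 398.3 and 73.9. At deposited values these were the largest upward differences of the list, and the genes were named after their values were seen. The 3 markers that were lower were Myl2, with a log2 difference of -0.29, Ckm, the muscle creatine kinase, with -0.70, and Myl3, another ventricular light chain, with -0.32, of which Ckm lay below the limit with cocaine and Myl3 on both arrays. The part of the muscle content of the tissue in the levels of these subunits was not tested.

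The hormone itself differed far more than its receptors. Adipoq stood at 352.1 with cocaine and 24.7 in the control, the latter below the background limit, so that its fold depends on the treatment of low values. With values raised to the higher of the limits, Adipoq was at least 4.92-fold higher. Of 10 measured white adipocyte markers, which include Adipoq, 9 were higher, or 8 with quantile normalization and 5 with the background floor, with summed intensities of 9278 and 7556. Their median log2 difference was 0.43, or 0.03 with that floor, and 4 of them lay below the limits on both arrays. Fabp4, above the limits on both arrays, had a log2 difference of 1.56. Lipe, the 1 marker lower at deposited values, had -0.29. Both were named after their values were seen.

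**Figure D3:**
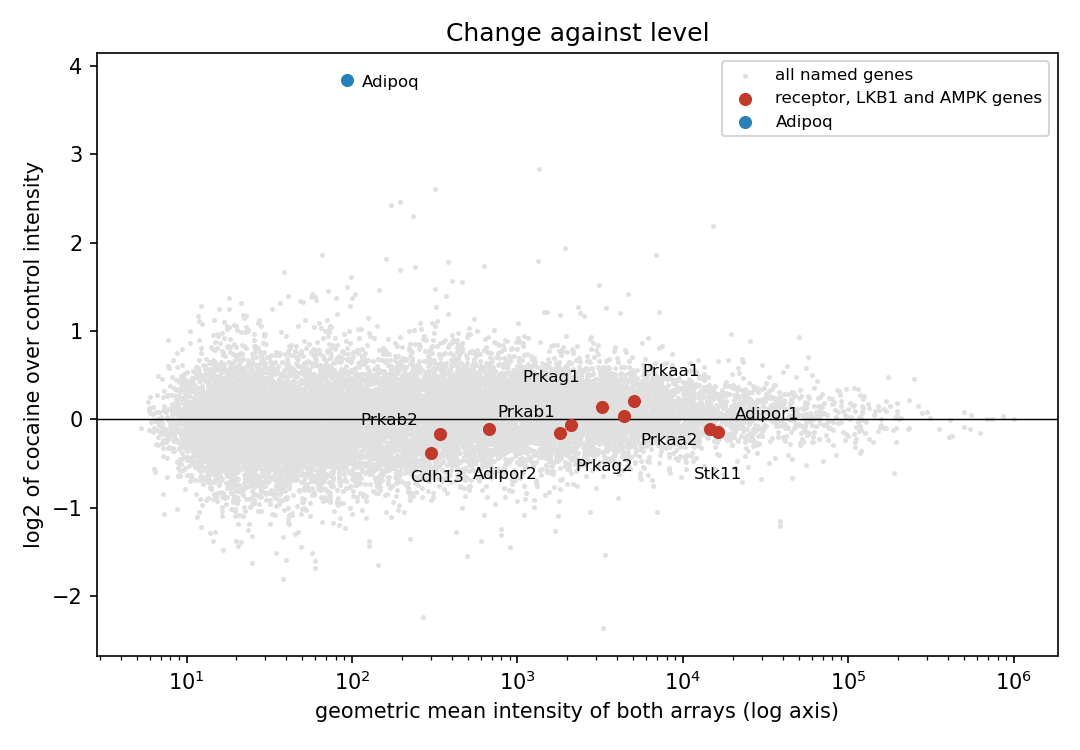
Log2 of the cocaine over the control intensity (vertical axis) against the geometric mean intensity of both arrays (horizontal log axis) for all 15037 named genes in grey, the 10 receptor, LKB1 and AMPK genes in red and Adipoq in blue. The 10 genes lie inside the grey cloud between -0.38 and 0.20. Adipoq is drawn at its deposited 3.84, but its control value was below the background limit, and with the background floor its log2 difference was at least 2.30, where genes above the limits on both arrays reached 2.83.

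Around these genes, 14 lists of the adiponectin and AMPK pathways held 115 genes, of which 101 were measured and 85 lay above the limits on both arrays. Of the 101 genes 56 were higher and 45 lower on the cocaine array. A difference of at least 1.2-fold was seen in 43 of them, or 42.6%, against the 42.4% of all named genes, and one of at least 1.5-fold in 8, or 7.92%, against 9.58%. These shares are near those of all named genes and are no result about the pathways. The genes named below are the up to 3 of each list with the largest differences among genes above the limits on both arrays, and those past 1.5-fold with a value above a limit. None of these 41 genes changed sign with median centring, quantile normalization or the trend removed. They were picked for the size of their differences, so the kept signs are no support for their directions.

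On the side of the hormone, 10 relatives in plasma were measured with Adipoq among them, 7 of which were higher and 3 lower. With the background floor 6 were higher. Of the 10, 5 lay above the limits on both arrays and 3 below the limits on both. C1qtnf1 and C1qtnf7, secreted proteins with the globular domain of adiponectin, had log2 differences of 0.41 and 0.25, and C1qtnf6 one of -0.65, at 81.3 with cocaine and 127.7 in the control. Of 5 genes that assemble and release adiponectin in the endoplasmic reticulum 3 were higher. Hspa5, the chaperone BiP, stood at 57310 and 40966, a log2 difference of 0.48, and Erp44, which retains unfinished adiponectin, had 0.36. Gstk1, also known as DsbA-L and an aid to the multimer, had -0.48, at 844.4 and 1181. Members of these lists thus went both ways.

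Of 8 measured relatives of the receptors in the PAQR family 6 were lower, with a median log2 difference of -0.22, or -0.11 with the background floor. The membrane progestin receptor gene Paqr5 stood at 47.9 with cocaine and 82.2 in the control, the former below the limit, so that only a bound of at least 1.15-fold lower can be given. Paqr4 had -0.35, Paqr8 had -0.33 and Paqr6, on the other side, 0.28. Among 4 adaptor genes, which include the early endosome GTPases, Rab5a had 0.31, Rab5c 0.21 and Appl2, a binding partner of the receptors, -0.18.

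AdipoR1 and AdipoR2 have been tied to a ceramidase activity, and 13 genes of ceramide and sphingosine phosphate turnover were measured. Of these 9 were lower and 4 higher, with a median log2 difference of -0.19, or -0.07 with the background floor. S1pr3, a receptor of sphingosine 1-phosphate, stood at 553.0 with cocaine and 878.0 in the control, a log2 difference of -0.67. Cers2, a synthase of ceramides with very long chains, stood at 14059 and 18459, a log2 difference of -0.39, and Sphk2, a sphingosine kinase, had -0.36. Over the 40 measured genes of the lists around the hormone and its receptors, 23, or 57.5%, differed by at least 1.2-fold, against 42.4% of all named genes, 10 of them upward and 13 downward. Of the 40 genes 30 lay above the limits on both arrays, and genes below a limit, among them Adipoq, C1qtnf3 and Sphk1, are counted in the 23. Over the 85 genes of all 14 lists above the limits on both arrays, 37.6% differed by at least 1.2-fold, against 38.5% of all such genes. The 37.6% covers the AMPK lists as well, and the share over the 30 genes alone was not computed. No result about these lists is drawn from the 57.5%.

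Upstream of AMPK, 5 of 7 measured genes were higher, or 4 with median centring, quantile normalization or the trend removed. None was past 1.2-fold upward. The pseudokinases Strada and Stradb, which activate LKB1, had log2 differences of 0.21 and 0.23. Camkk1, a calcium-dependent kinase, stood at 146.6 with cocaine and 183.8 in the control, a log2 difference of -0.33. Fnip2 and Fnip1 encode partners of folliculin that bind AMPK. Fnip2 stood at 812.2 and 544.1, a log2 difference of 0.58, and Fnip1 at 1148 and 783.1, a log2 difference of 0.55. Flcn, the gene of folliculin itself, had -0.27.

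Of 7 genes that restrain AMPK, those of phosphatases and ligases and Cidea, 6 were higher on the cocaine array, or 5 with quantile normalization. Of all named genes 52.4% were higher. The median log2 difference of the 7 was 0.32, or 0.22 with quantile normalization and 0.23 with the trend removed. Ppp2cb, a catalytic subunit of protein phosphatase 2A, stood at 20680 with cocaine and 15703 in the control, a log2 difference of 0.40. Cidea, a lipid droplet protein for which a role in the breakdown of AMPK has been described in mice, had 0.50. The phosphatase gene Ppm1e had -0.40, or -0.30 with the background floor. It stood at 67.1 with cocaine, near the limit of 64.1. Of 10 further kinases that LKB1 activates 6 were higher, or 4 with quantile normalization or the trend removed. The polarity kinase gene Mark2 stood at 693.4 and 1024, a log2 difference of -0.56, Nuak2 had -0.44 and Mark3 0.21.

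Genes of AMPK substrates likewise went both ways. Of 9 measured substrates in lipid and glucose metabolism 6 were higher, or 5 with quantile normalization. Pfkfb2, which controls glycolysis in heart, stood at 2147 with cocaine and 1551 in the control, a log2 difference of 0.47. Acaca, the acetyl-CoA carboxylase of fatty acid synthesis, had 0.25 and Lipe, the hormone-sensitive lipase, -0.29. Of 9 substrates in growth, autophagy and mitochondria 5 were higher. Rptor, a part of the growth-promoting mTOR complex, stood at 737.4 and 504.9, a log2 difference of 0.55, whereas Pik3c3 had 0.21 and Mtfr1l 0.14. With quantile normalization these were 0.13 and 0.04, and with the trend removed 0.13 and 0.06.

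Among 9 measured substrates in transcription 5 were lower, or 6 with median centring. Crtc2, a coactivator of glucose production genes, stood at 278.7 with cocaine and 440.1 in the control, a log2 difference of -0.66. Mlxipl, the carbohydrate response factor ChREBP, stood at 121.6 and 186.3, a log2 difference of -0.62. Srebf1, a driver of fatty acid synthesis genes, had 0.39. Of 6 genes of adenine nucleotide balance 4 were higher, or 3 with the background floor, and 4 lay above the limits on both arrays. Ampd2, an AMP deaminase, had a log2 difference of -0.51, Ampd3 one of 0.12 and Ak3, an adenylate kinase, one of 0.09 that shrank to 0.02 with quantile normalization or the trend removed. Over the 61 measured genes of the AMPK lists, 20, or 32.8%, differed by at least 1.2-fold, against 42.4% of all named genes. Crtc2 and Mlxipl, 2 genes or 3.28%, differed by at least 1.5-fold, against 9.58%. Of the 61 genes 55 lay above the limits on both arrays. Of all genes above the limits on both arrays, 38.5% differed by at least 1.2-fold and 7.04% by at least 1.5-fold. The shares over the 55 genes alone were not computed, and no result about these lists is drawn.

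**Figure D4:**
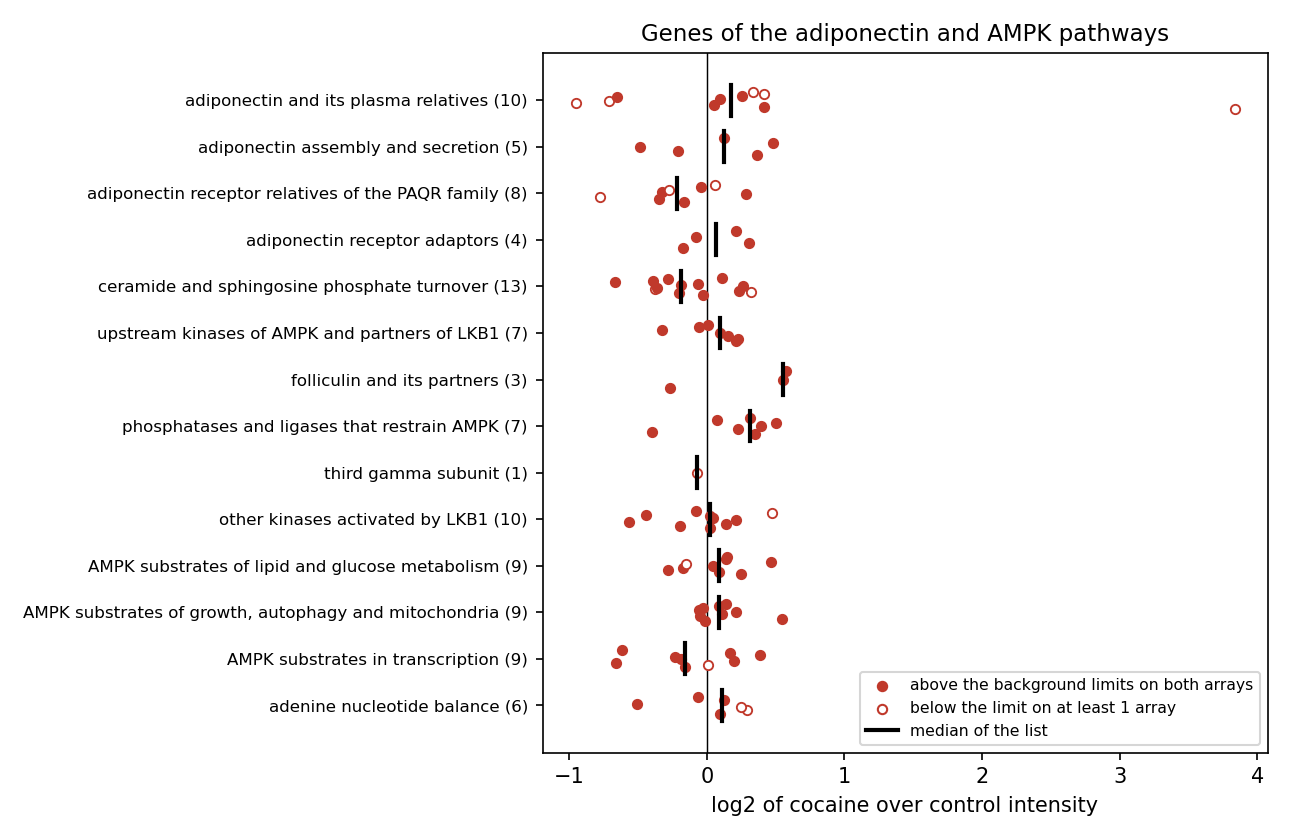
Log2 of the cocaine over the control intensity (horizontal axis) for the measured genes of the 14 pathway lists, with the number of genes in brackets. Filled circles lie above the background limits on both arrays, open circles below a limit on at least 1 array, and bars mark list medians. Most lists straddle 0. The point farthest to the right is Adipoq, drawn at its deposited value, for which the background floor gives at least 2.30.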

How the data were processed

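The deposited values are normalized intensities, linear and not logged, with 1 for each probe set of each array. MAS5 is named in the submitters' processing notes and the Transcriptome Analysis Console in the study's methods. For neither is a version, build or annotation given in the sources used here. Of 24834 probe sets, the platform annotation named 15049 with 1 symbol, 0 had several, 8139 transcript probe sets were unnamed and 1646 were control probe sets. All 10 genes matched RefSeq (GRCr8) in symbol and chromosome. Intensities were put on the log2 scale without a pseudocount and averaged per gene, and control was subtracted from cocaine. No test was possible with 1 array per condition, so precision is limited by the number of arrays. The genes, the lists and the background limit were chosen with earlier results of these data known. Named were all 10 genes, Adipoq, and from each pathway list the 3 largest differences among genes above the limits on both arrays and those of at least 1.5-fold with a value above a limit. Alternatives were median centring, quantile normalization, a loess on level (span 0.3), a floor at the higher background limit, a pseudocount of 32, the brightest probe set of a gene and a limit at the 99th percentile. Marker genes used as tissue checks were picked with their values known. The scripts were checked on simulated data. Python 3.11.15 with numpy 2.4.6, pandas 2.3.3, statsmodels 0.14.6 and matplotlib 3.10.9 was used.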

Additional observations from a re-analysis of the deposited data

How the results depend on the processing

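Over the 6 alternatives of scaling, low values and probe set choice, the log2 differences of the 10 genes gave 60 values. Of these, 58 kept the direction of the deposited values and their side of 1.2-fold, and 2, both of Prkaa2, changed sign without reaching 1.2-fold. Each gene had 1 probe set and all 10 lay above the limits. The floor and the brightest probe set could therefore only return the deposited values, and their agreement was fixed in advance. The median log2 difference of the 10 genes lay at -0.13 with median centring, -0.18 with quantile normalization, -0.17 with the loess trend removed and -0.11 with the floor, the pseudocount or the brightest probe set. Under each of these 6 settings Cdh13 was the 1 gene past 1.2-fold and 0 genes were past 1.5-fold. With the limit at the 99th percentile of the sensory receptor genes, at 116.4 with cocaine and 139.4 in the control, all 10 genes still lay above it. No paired analysis was possible because each condition has 1 array. For the same reason no array could be left out. The lack of replicates is the main limit, since the spread between rats of 1 group is unknown here.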
